A study of Homo sapiens with 9 samples.

Results

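The matrix metalloproteinases MMP1, MMP2, MMP3, MMP7, MMP9, MMP10, MMP13 and MMP14 and the tissue inhibitors of metalloproteinases TIMP1 and TIMP2 were followed by gene symbol, as 10 of the 60605 genes in the deposited table. Each symbol stood on 1 row, and members were taken by symbol alone, not by a threshold on their values. They and the gene lists below were chosen with earlier results of these data known. Their shares called are therefore only descriptive beside those of all genes. The latter take in genes down to a mean of 0.1 FPKM and were not matched for level. The libraries came from TE13, an established esophageal squamous cell carcinoma (ESCC) line, and fall into 3 conditions of 3 libraries each, 9 in all: cells transfected with a control siRNA, with siRNA.1 against PARylator, or with siRNA.2 against PARylator. PARylator is the lncRNA LINC00885, and the comparisons ask what siRNA knockdown of PARylator did to the transcriptome. These data rest on 1 cell line and on 1 control siRNA condition, which both knockdown conditions share. A figure legend of the study gives its TE13 RNA-seq as 3 experimental repeats. The labels do not say whether the 3 libraries of a condition came from separate cultures, so p-values measure the spread between libraries, which may be technical.

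Matrix metalloproteinases are zinc enzymes that are made as inactive precursors and cut collagens, laminins, fibronectin and many proteins of the cell surface once their propeptide is removed. TIMPs bind the active enzymes and block them, and TIMP2 also takes part in the activation of the MMP2 precursor by MMP14 at the cell membrane. In tumors much of the MMP2 and MMP3 is made by fibroblasts, whereas MMP7 is a product of the epithelial cells themselves, and MMP13 and MMP14 have long been linked to invasion of squamous carcinomas. Transcript levels say nothing of whether the enzymes are activated or secreted.

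MMP7 is the member that changed most with siRNA.1. Its promoter is shown with that of MMP10, because both genes lie in the same cluster on chromosome 11. MMP10 was also called lower with siRNA.1, a call lost in 5 of 21 other settings. The sequences are the 100 bases upstream of each RefSeq start (GRCh38.p14, minus strand, 5′ to 3′), at chr11:102530748-102530847 for MMP7 and at chr11:102780629-102780728 for MMP10. Capitals mark the AP-1 motif TGANTCA and the TATA motif TATAAA.
MMP7: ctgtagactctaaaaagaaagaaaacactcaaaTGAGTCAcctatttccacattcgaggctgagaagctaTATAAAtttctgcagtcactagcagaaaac
MMP10: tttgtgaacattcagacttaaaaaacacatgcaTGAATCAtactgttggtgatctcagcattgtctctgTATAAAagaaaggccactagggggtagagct

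In both genes the AP-1 motif runs from base -67 to base -61 before the start, as TGAGTCA in MMP7 and TGAATCA in MMP10. The TATA motif begins at base -30 in MMP7 and at base -31 in MMP10. Of 35116 RefSeq promoters, each from 250 bases before to 50 after the start and searched on both strands, 7.71% hold TGANTCA and 11.5% hold TATAAA. The ETS motif AGGAAG, held by 33.6% of promoters, occurs in MMP7 on the other strand, from -169 to -164 and from -145 to -140, and once in TIMP1, from -87 to -82. Neither TGANTCA nor TATAAA was found in the windows of MMP14 and TIMP1. Promoters of 4 of the 10 members were matched, and those of MMP1, MMP3 and MMP13 in the same cluster were not among them. A match is a description of letters and says nothing of binding in TE13 cells.

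Total counts on genes were between 15337917 and 22559998 per library, with a spread above sampling noise within each condition. LINC00885 itself was hardly captured, with 6, 7 and 12 counts in the control libraries, 4, 5 and 2 with siRNA.1, and 2, 0 and 4 with siRNA.2. The knockdown could thus not be checked in these libraries at this depth (edgeR adjusted p = 0.376 and 0.0659). The study reports it from qPCR in ESCC cells. The mitochondrial share of counts was higher in the control libraries (7.46% to 7.66%) than with siRNA.1 (4.99% to 5.06%) or siRNA.2 (5.54% to 5.56%), and a scaling without these genes lost 0 and gained 0 of the members' calls. Markers of other cell types were low in these cell-line libraries. Of 8 fibroblast markers COL1A1 alone stood at 1 FPKM or more, and all 7 leukocyte and all 3 endothelial markers were below that level in every condition. The 7 squamous epithelial markers were all above it, with a summed level between 639 and 653 FPKM in the control libraries, between 558 and 584 with siRNA.1 and between 552 and 568 with siRNA.2, but they moved in both directions: KRT5 went from 142.5 FPKM to 39.97 and 55.8 FPKM (-1.86 and -1.36), while EPCAM (0.44 and 0.45) and KRT6A (0.34 and 0.58) were higher with both siRNAs, all called by edgeR. The summed fibroblast markers lay between 2.27 and 2.52 FPKM in the control libraries, between 1.5 and 1.65 with siRNA.1 and between 1.5 and 1.78 with siRNA.2, and THY1 was at 0 in the control libraries, DCN with both siRNAs and THY1 with siRNA.2. The leukocyte markers summed to between 0.82 and 1.12, between 1.80 and 2.01 and between 1.53 and 1.71 FPKM in the same order, with MPO at 0 in the control and siRNA.2 libraries and CD3E at 0 with siRNA.2, and the endothelial markers summed to between 1.2 and 1.54, between 0.63 and 0.89 and between 0.42 and 0.54 FPKM. As all libraries came from the TE13 line, these sums were not read as numbers of cells of other types. In bulk RNA, a change in some of the cells and a change in all of them cannot be told apart.

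TE13 cells transcribed 9 of the 10 members at a level that could be tested, and their order was led by the membrane-anchored enzyme MMP14. Levels are given in FPKM, the count corrected for gene length and library size, so that they can be set side by side between genes. In the control libraries MMP14 stood at 173 ± 6.89 FPKM (SD, n = 3), above 99.4% of the 28065 genes with a level above 0. TIMP1 followed at 38.3 ± 1.13 FPKM and TIMP2 at 31.9 ± 1.03 FPKM (SD, n = 3), then MMP7, MMP13, MMP9 and MMP1, in that order and without overlap between neighbours. MMP10 and MMP2 came after them with overlapping libraries, and MMP3 was last with 0 counts. MMP14 thus made up 77.8% of the summed FPKM of the 8 MMP members in the control libraries.

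**Figure D1:**
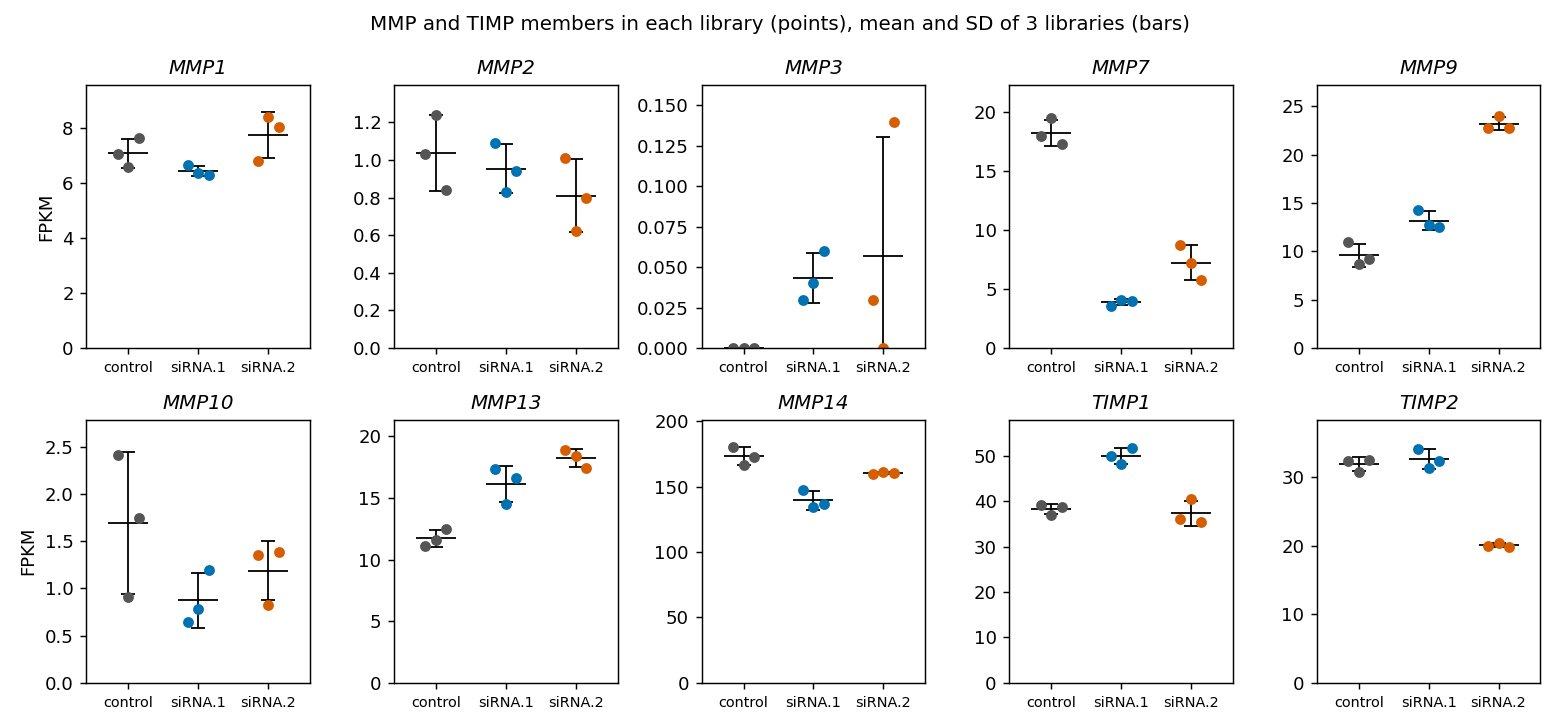
Level of each of the 10 members in FPKM (vertical axis, from 0, scaled per gene) in each library (points) of control siRNA, siRNA.1 and siRNA.2, with the mean and SD of 3 libraries as bars. MMP7 was lower in all 6 PARylator siRNA libraries than in the control libraries, MMP9 and MMP13 were higher, TIMP1 was apart with siRNA.1 and TIMP2 with siRNA.2.

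The ranking changed at MMP7 and MMP9. With siRNA.1, MMP7 fell from behind the TIMPs to behind MMP13, MMP9 and MMP1, at a level above 70.9% of expressed genes as against 90.9% in the control libraries. With siRNA.2, MMP7 likewise fell behind MMP9 and MMP13, at a level above 80.05% of expressed genes, and its libraries overlapped those of MMP1. MMP9 stood above TIMP2 with that siRNA. MMP14 was first and TIMP1 next in all 3 conditions.

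Counts were tested with edgeR's quasi-likelihood test over 21397 genes, with calls made at an adjusted p (Benjamini-Hochberg) under 0.05, and fold changes are on the log2 scale against control siRNA. With siRNA.1, 6 of the 9 members tested were called, 3 higher (MMP9, MMP13 and TIMP1) and 3 lower (MMP7, MMP10 and MMP14). Among all genes tested, 30.2% were called in that comparison. With siRNA.2, 5 of 9 were called, 2 higher (MMP9 and MMP13) and 3 lower (MMP7, MMP14 and TIMP2), beside 30.9% of all genes. The median log2 fold change of the tested members was -0.14 for siRNA.1, where that of all genes was -0.00053, and -0.12 for siRNA.2, where that of all genes was 0.0040. MMP9 and MMP13 rose with both siRNAs, MMP7 and MMP14 fell with both, and 0 members were called in opposite directions, beside 11.1% of all genes tested higher with both, 10.2% lower with both and 0.355% in opposite directions. Both comparisons use the same control libraries, so these directions are not independent of each other. Counts of members called stayed between 5 and 6 with siRNA.1 and between 4 and 6 with siRNA.2 under all the other settings tried.

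**Figure D2:**
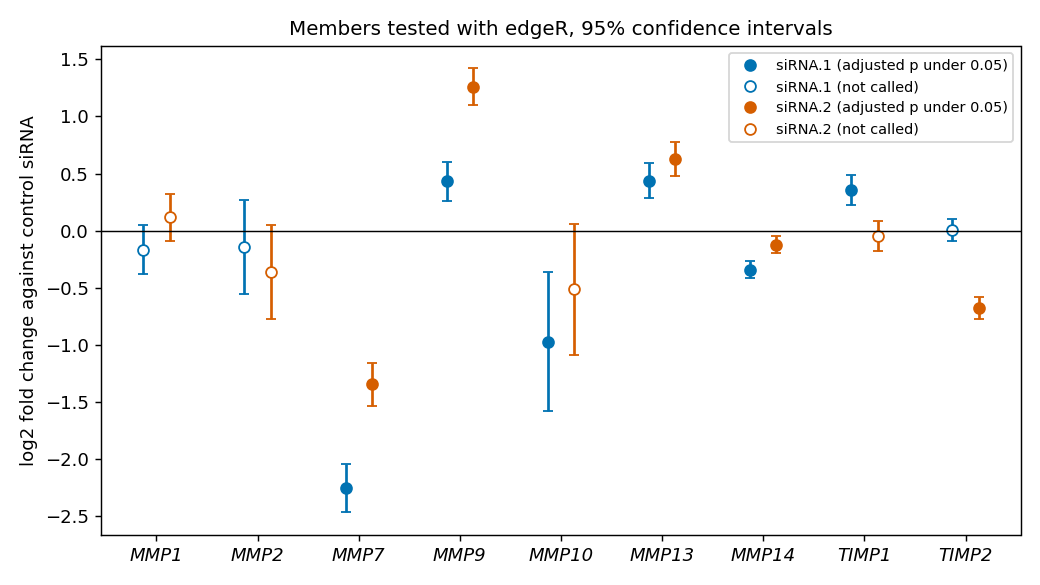
Log2 fold change of the 9 members tested (vertical axis) with siRNA.1 and siRNA.2 against control siRNA, from edgeR, with 95% confidence intervals as bars. Filled points have an adjusted p under 0.05, and the lowest point is MMP7 with siRNA.1 at -2.26, the highest MMP9 with siRNA.2 at 1.26.

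MMP7, or matrilysin, is the smallest of these enzymes in domain structure and sheds surface proteins such as E-cadherin. Its level was 17.9, 19.4 and 17.2 FPKM in the control libraries, 3.57, 4.09 and 4.0 FPKM with siRNA.1, and 8.75, 7.22 and 5.73 FPKM with siRNA.2. The 3 conditions did not overlap, as was the case in CPM between siRNA and control libraries for 38.5% (siRNA.1) and 39.8% (siRNA.2) of all genes and between the siRNAs for 24.6%, and the siRNA.1 libraries were the lowest and lay close together. MMP7 fell by 2.26 with siRNA.1 (SE 0.11, 95% confidence interval -2.47 to -2.04, edgeR adjusted p = 7.82e-94), to 20.9% of the control level. With siRNA.2 it fell by 1.35 (SE 0.10, interval -1.54 to -1.16, edgeR adjusted p = 5.96e-41), to 39.3% of control. The decrease was thus smaller with siRNA.2, by 0.91 when that siRNA was tested against siRNA.1 (SE 0.11, edgeR adjusted p = 2.60e-13). Of the members called, MMP7 had the largest change in size under siRNA.1. Under siRNA.2 it was close in size to MMP9, with an order that turned without siRNA.2 replicate 3 (-1.20 for MMP7 and 1.27 for MMP9). The calls of MMP7 held under every setting tried.

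The gelatinases MMP2 and MMP9 cut denatured collagen and the type IV collagen of basement membranes. MMP9 stood at 10.9, 8.68 and 9.23 FPKM in the control libraries, 14.3, 12.8 and 12.5 FPKM with siRNA.1, and 22.8, 24.0 and 22.8 FPKM with siRNA.2. All siRNA.2 libraries were above all siRNA.1 libraries, and these were above all control libraries. MMP9 rose by 0.43 with siRNA.1 (SE 0.09, edgeR adjusted p = 7.58e-06) and by 1.26 with siRNA.2 (SE 0.08, edgeR adjusted p = 1.00e-49), or 1.35-fold and 2.40-fold. The difference between the siRNAs was 0.83 (SE 0.08, edgeR adjusted p = 1.41e-22). Of the 2336 exonic bases of MMP9, 430 also belong to the antisense transcript SLC12A5-AS1, whose own counts summed to 130, 83 and 112 in the 3 conditions. The use of strand in counting is not given in the sources used here, so reads from the pair cannot be told apart over those bases.

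MMP2 was near the lower end of the members, at 1.03, 1.24 and 0.84 FPKM in the control libraries, 1.09, 0.83 and 0.94 with siRNA.1, and 1.01, 0.62 and 0.80 with siRNA.2. The conditions overlapped. Its log2 difference was -0.14 with siRNA.1 (interval -0.55 to 0.27, edgeR adjusted p = 0.687) and -0.36 with siRNA.2 (interval -0.77 to 0.05, edgeR adjusted p = 0.199), and the first turned to 0.0074 without control siRNA replicate 2. Because MMP14 was so high and MMP2 so low, the ratio of their FPKM was 175, 134 and 206 in the control libraries, 135, 162 and 145 with siRNA.1, and 158, 260.2 and 201 with siRNA.2, and the 3 conditions overlapped.

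The collagenases MMP1 and MMP13 make the first cut in fibrillar collagen. MMP13 stood at 11.1, 11.6 and 12.5 FPKM in the control libraries, 17.3, 14.5 and 16.6 FPKM with siRNA.1, and 18.9, 18.4 and 17.5 FPKM with siRNA.2. Every PARylator siRNA library was above every control library. MMP13 rose by 0.44 with siRNA.1 (SE 0.08, edgeR adjusted p = 2.21e-07) and by 0.63 with siRNA.2 (SE 0.08, edgeR adjusted p = 4.71e-15). The difference between the siRNAs was 0.19 (interval 0.05 to 0.33, edgeR adjusted p = 0.0718) and was called, at 0.25, without siRNA.1 replicate 1 (edgeR adjusted p = 0.0288).

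MMP1 stood at 7.05, 6.56 and 7.61 FPKM in the control libraries, 6.64, 6.34 and 6.30 FPKM with siRNA.1, and 6.79, 8.38 and 8.03 FPKM with siRNA.2. Both siRNA conditions overlapped the control libraries. The log2 difference was -0.17 with siRNA.1 (interval -0.38 to 0.05, edgeR adjusted p = 0.268) and 0.12 with siRNA.2 (interval -0.09 to 0.32, edgeR adjusted p = 0.459). The siRNA.2 libraries were above the siRNA.1 libraries by 0.28, a difference that did not pass the test (edgeR adjusted p = 0.0572) and passed it without siRNA.2 replicate 1 (0.38, edgeR adjusted p = 0.0151). MMP1 shares 223 of 2738 exonic bases with the antisense pseudogene WTAPP1, which had 14, 7 and 8 counts in the 3 conditions.

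The stromelysins MMP3 and MMP10 cut proteoglycans and fibronectin and activate other MMP precursors. The control libraries held 65, 25 and 55 counts of MMP10, with 20, 21 and 37 with siRNA.1, and 47, 28 and 55 with siRNA.2, or 1.69 ± 0.752, 0.873 ± 0.291 and 1.19 ± 0.312 FPKM (SD, n = 3). The control libraries spread widely and overlapped both siRNA conditions. MMP10 was called lower with siRNA.1 at -0.97 (SE 0.31, edgeR adjusted p = 0.00751), a call lost without control siRNA replicate 1 (-0.64, edgeR adjusted p = 0.187), without siRNA.1 replicate 1 (-0.79, edgeR adjusted p = 0.0667) and in limma on log2(FPKM + 0.1) (-0.82, adjusted p = 0.181). With siRNA.2 the value was -0.51 (edgeR adjusted p = 0.192), which passed without control siRNA replicate 2 (-0.81, edgeR adjusted p = 0.0387). MMP3 was too low to test, with 0 counts in each control library, 1, 1 and 2 with siRNA.1, and 1, 0 and 6 with siRNA.2.

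MMP14, which is anchored in the membrane and activates the MMP2 precursor, had 181, 167 and 173 FPKM in the control libraries. With siRNA.1 it stood at 147, 134 and 137 FPKM and with siRNA.2 at 159.8, 161 and 161 FPKM. The siRNA.1 libraries were lowest, the siRNA.2 libraries lay in between, and the conditions did not overlap. MMP14 fell by 0.34 with siRNA.1 (SE 0.04, edgeR adjusted p = 4.41e-19) and by 0.12 with siRNA.2 (SE 0.04, edgeR adjusted p = 0.00386), to 78.9% and 91.9% of the control level. The siRNA.2 call was lost without control siRNA replicate 1 (-0.09, edgeR adjusted p = 0.0674) and in limma on log2(FPKM + 0.1) (-0.11, adjusted p = 0.225). The difference between the siRNAs was 0.22 (edgeR adjusted p = 1.11e-07) and was likewise lost in limma (0.20, adjusted p = 0.118).

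The inhibitors differed between the siRNAs. TIMP1, which binds most secreted MMPs, including the MMP9 precursor, and blocks MMP14 poorly, stood at 39.2, 37.0 and 38.6 FPKM in the control libraries, 49.99, 48.3 and 51.8 FPKM with siRNA.1, and 36.1, 40.5 and 35.3 FPKM with siRNA.2. The siRNA.1 libraries were above the 6 others, which overlapped. TIMP1 rose by 0.36 with siRNA.1 (SE 0.07, edgeR adjusted p = 6.69e-07), while its value with siRNA.2 was -0.05 (interval -0.18 to 0.08, edgeR adjusted p = 0.639). The siRNA.2 libraries were below the siRNA.1 libraries by 0.41 on the log2 scale (-0.41, SE 0.07, edgeR adjusted p = 2.45e-08).

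TIMP2 had 32.4, 30.7 and 32.5 FPKM in the control libraries, 34.2, 31.3 and 32.4 FPKM with siRNA.1, and 20, 20.4 and 19.8 FPKM with siRNA.2. Here the siRNA.2 libraries stood below the 6 others. TIMP2 fell by 0.68 with siRNA.2 (SE 0.05, edgeR adjusted p = 2.41e-40), to 62.5% of control. With siRNA.1 its value was 0.0057 (interval -0.09 to 0.10, edgeR adjusted p = 0.961), with the sign turning in single-library omissions, and the difference of siRNA.2 from siRNA.1 was -0.68 (edgeR adjusted p = 3.51e-40). Its exonic length is 5633 bases in the deposited table, which sets its FPKM, and 6209 in GENCODE release 44, and of the latter TIMP2 shares 367 bases with an antisense lncRNA that had 0 counts and 224 with CEP295NL on the same strand, which had 13, 12 and 20 counts in the 3 conditions.

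Between the siRNAs, 5 of the 9 members tested were called, 3 higher with siRNA.2 (MMP7, MMP9 and MMP14) and 2 lower (TIMP1 and TIMP2). Among all genes tested, 12.2% were called in that comparison, 6.1% higher and 6.07% lower. For these members the siRNAs differed either in size, as for MMP7, MMP9 and MMP14, or in which siRNA passed the test against control, as for TIMP1 and TIMP2.

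Summed over members, the MMP level was 223 ± 7.91 FPKM in the control libraries, 181 ± 9.03 with siRNA.1 and 219 ± 1.88 with siRNA.2 (SD, n = 3). The TIMP level was 70.2 ± 2.14, 82.6 ± 2.64 and 57.4 ± 3.13 FPKM (SD, n = 3) in the same order. The ratio of the sums was 3.22, 3.18 and 3.12 in the control libraries, 2.27, 2.18 and 2.12 with siRNA.1, and 3.92, 3.62 and 3.94 with siRNA.2. The siRNA.1 libraries were lowest and the siRNA.2 libraries highest, a log2 change of the mean ratio by -0.54 and 0.27, given as a description of these 10 genes. The siRNA.2 direction depended on which inhibitors were counted. With all 23 MMP and 4 TIMP genes of the table the ratio was 3.06, 2.97 and 2.91 in the control libraries, 2.08, 1.99 and 1.96 with siRNA.1, and 2.91, 2.72 and 2.92 with siRNA.2, so that the siRNA.2 libraries overlapped the control libraries and the log2 change was -0.07. TIMP3, which is no member, enters that sum.

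Because TIMP2 forms a complex with MMP14, their FPKM were also set against each other. The ratio of MMP14 to TIMP2 was 5.56, 5.43 and 5.32 in the control libraries, 4.31, 4.29 and 4.22 with siRNA.1, and 7.99, 7.90 and 8.11 with siRNA.2. The 3 conditions did not overlap, with siRNA.1 below and siRNA.2 above control siRNA. For MMP9 and TIMP1, which bind each other as well, the ratio was 0.279, 0.234 and 0.239 in the control libraries, 0.286, 0.264 and 0.241 with siRNA.1, and 0.633, 0.591 and 0.646 with siRNA.2. There the siRNA.2 libraries stood alone, and the siRNA.1 libraries overlapped the control libraries.

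The members MMP7, MMP10, MMP1, MMP3 and MMP13 lie on the minus strand of chromosome 11 within 435 kb, in a cluster of 9 MMP genes that starts with MMP7 (chr11:102520508-102530750) and ends with MMP13 (chr11:102942995-102955732, GRCh38). Between them are MMP10 (chr11:102770502-102780628), MMP1 (chr11:102789401-102798160) and MMP3 (chr11:102835801-102843609). The members at the ends of the cluster moved in opposite directions, MMP7 lower and MMP13 higher with both siRNAs. Of the cluster genes that are no members, MMP12, a macrophage elastase, reached 2, 6 and 5 counts in control cells, 0 in each siRNA.1 library, and 0, 0 and 1 with siRNA.2. MMP20 had 16, 3 and 11 counts summed over the libraries of the 3 conditions, MMP8 had 0, 0 and 3 and MMP27 had 0 in all. None of these 4 was high enough to test.

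The other members lie apart from the cluster, MMP2 at chr16:55389700-55506691, MMP9 at chr20:46008908-46016561, MMP14 at chr14:22836560-22849041 and TIMP1 at chrX:47582408-47586789 on the plus strand, and TIMP2 at chr17:78852977-78925387 on the minus strand. TIMP1 lies within an intron of SYN1, which runs on the other strand, had 0 counts and shares no exonic base with it. All 10 members have the same start and end in the table and in GENCODE release 44.

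Among the 15 other MMP genes, 9 could be tested. With siRNA.1, 1 was called higher and 3 lower, beside 30.2% of all genes called. With siRNA.2, 1 was higher and 2 lower, beside 30.9% of all genes. MMP17, a membrane-type enzyme with a lipid anchor, rose from 1.14 FPKM in the control libraries to 1.78 with siRNA.1 (0.61, edgeR adjusted p = 0.00265) and 2.23 with siRNA.2 (0.95, edgeR adjusted p = 2.49e-07). MMP15, the close relative of MMP14, stood at 6.75, 7.84 and 6.94 FPKM and was not called (edgeR adjusted p = 0.0907 and 0.864). The lower genes, named after their values were seen, were MMP19 (-1.24 and -2.01, in the order siRNA.1 and siRNA.2) and MMP28 (-1.19 and -1.43) with both siRNAs and MMP25 with siRNA.1 (-0.77). Each averaged below 1 FPKM over all libraries. In the control libraries alone MMP19 stood at 1.16, MMP28 at 1.39 and MMP25 at 0.807 FPKM. MMP19 and MMP25 share 821 and 1454 exonic bases with antisense transcripts. The MMP25 call was lost without control siRNA replicate 1 (-0.57, edgeR adjusted p = 0.131).

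Of 5 other MMP inhibitors, 4 were tested, and 3 rose with both siRNAs while 0 fell. A2M is among the 3 and passed the filter of 0.1 FPKM only through the siRNA libraries. Its entry into the test thus depended on its rise. Over all genes tested, 11.1% were higher and 10.2% lower with both. TIMP3, which unlike the other TIMPs binds to the matrix, stood at 8.04, 8.76 and 9.26 FPKM in the control libraries, 13.9, 13.6 and 13.2 FPKM with siRNA.1, and 23.6, 25.0 and 23.2 FPKM with siRNA.2. The 3 conditions did not overlap, and the siRNA.2 libraries were above the level of TIMP2 in the same libraries. TIMP3 rose by 0.61 with siRNA.1 (edgeR adjusted p = 1.28e-18) and by 1.45 with siRNA.2 (edgeR adjusted p = 8.61e-110), with a difference between the siRNAs of 0.83 (edgeR adjusted p = 4.38e-39). TFPI2, a secreted inhibitor of serine proteases such as plasmin, was higher by 0.45 and 0.51 (edgeR adjusted p = 1.94e-06 and 1.70e-08), the first lost in limma on log2(FPKM + 0.1) (adjusted p = 0.0518). The broad inhibitor A2M, named after its values were seen, was below 1 FPKM in every condition, at 0.05, 0.377 and 0.453 FPKM. It reached 11, 4 and 0 counts in control cells, 44, 31 and 46 with siRNA.1, and 52, 62 and 61 with siRNA.2. RECK, a membrane inhibitor, had 1.21, 1.26 and 1.16 FPKM in the 3 conditions and was not called (edgeR adjusted p = 0.923 and 0.845).

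The plasmin system, which activates several MMP precursors, moved in both directions. Of 11 genes 10 were tested, with 3 higher and 4 lower with siRNA.1 and 3 higher and 3 lower with siRNA.2. Among all genes tested, 30.2% were called with siRNA.1 and 30.9% with siRNA.2. The protease inhibitors SERPINE2 (2.38, 6.45 and 4.71 FPKM in control, siRNA.1 and siRNA.2 libraries) and SERPINB2 (80.2, 174 and 143 FPKM) rose with both siRNAs, as did PLAUR (34.0, 49.3 and 47.3 FPKM), the receptor of urokinase. PLAU, the urokinase itself, went from 199 to 152 and 170.4 FPKM (-0.42 and -0.24), the siRNA.2 call being lost in limma on log2(FPKM + 0.1) (adjusted p = 0.0844). Fold changes of the higher genes were 1.41 and 0.97 for SERPINE2, 1.09 and 0.82 for SERPINB2 and 0.51 and 0.46 for PLAUR on the log2 scale.

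Of 6 activating proteases, most of them proprotein convertases that cut the propeptide of membrane-type MMPs inside the cell, 5 were tested. With siRNA.1, 3 were higher and 1 lower, beside 30.2% of all genes called. With siRNA.2, 1 was higher and 2 lower, beside 30.9% of all genes. PCSK6 rose with both siRNAs (0.56 and 0.59). FURIN, named after its values were seen, stood at 27.4, 36.4 and 27.7 FPKM, with a rise by 0.39 with siRNA.1 (edgeR adjusted p = 3.51e-13) and a value of 0.0080 with siRNA.2 (edgeR adjusted p = 0.941), and the siRNAs differed by -0.38 (edgeR adjusted p = 3.25e-12). PCSK5, also named after its values were seen and below 1 FPKM, was lower with both (-0.76 and -0.87). Among 13 genes of the related ADAM and ADAMTS proteases 9 were tested, with 3 higher and 2 lower with each siRNA, beside the same shares of all genes. ADAMTS1 (0.85 and 0.76) and ADAM15 (0.47 and 0.42) rose with both.

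All 8 surface partners of MMPs were tested, of which 2 were higher with each siRNA, and 5 were lower with siRNA.1 and 4 with siRNA.2. The shares of all genes called were 30.2% and 30.9%. LCN2, which forms a complex with MMP9, rose from 5.58 FPKM to 11.9 and 11 FPKM (1.06 and 0.96). CD44, which docks MMP9 and MMP14 at the cell surface, was at 69.6, 78.6 and 75.1 FPKM (0.15 and 0.10, edgeR adjusted p = 2.88e-04 and 0.0227), calls lost in limma on log2(FPKM + 0.1) (adjusted p = 0.0544 and 0.190) and, with siRNA.2, without control siRNA replicate 2 or 3 or siRNA.2 replicate 2 or 3 (edgeR adjusted p = 0.0783, 0.242, 0.0557 and 0.0932). LRP1, a receptor that takes up MMPs from the medium, fell by 0.88 and 0.90, CD9 by 0.78 and 0.72 and SDC1 by 0.21 and 0.37 on the log2 scale.

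Of the 14 AP-1 and ETS family factors, whose motifs are known from many MMP promoters, all were tested, and 7 were higher and 6 lower with each siRNA, the same genes with both. FOS (1.55 and 1.37), FOSB (1.24 and 1.27) and ATF3 (1.31 and 1.00) were higher. JUNB (-0.32 and -0.44), ELF3 (-0.35 and -0.66) and JUND (-0.27 and -0.40) were lower, although the siRNA.1 call of JUND was lost in 9 of the settings tried, among them DESeq2 (adjusted p = 0.0525). FOS and FOSB were low, at 0.473 and 0.583 FPKM in the control libraries. Their means over all libraries, 1.05 and 1.13 FPKM, reached the level of 1 FPKM for naming only through the siRNA libraries. Among all genes, the share called was 30.2% and 30.9%, and whether the factors bear on the members was not tested. All 14 factors averaged 1 FPKM or more, whereas the genes behind that share reach down to 0.1 FPKM.

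The 16 matrix substrates held 12 genes that could be tested, of which 6 were higher with each siRNA, 3 lower with siRNA.1 and 4 with siRNA.2. VCAN, named after its values were seen, is among the 6, at 0.083, 0.287 and 0.32 FPKM. It passed the filter of 0.1 FPKM only through the siRNA libraries, so its entry into the test depended on its rise. The shares of all genes called were 30.2% and 30.9%. LAMA3, a laminin chain of epithelial basement membranes, stood at 111, 201 and 218 FPKM (0.83 and 0.97), FN1, or fibronectin, at 146, 269 and 212 FPKM (0.86 and 0.53) and COL17A1, the hemidesmosome collagen, at 38.8, 73.6 and 75.7 FPKM (0.90 and 0.95). HSPG2, or perlecan, fell by 0.47 and 0.63 and COL1A1 by 0.55 and 0.52 on the log2 scale. Over all 88 genes of these lists, 71 were tested. Called were 28 higher and 24 lower with siRNA.1 and 26 higher and 23 lower with siRNA.2, beside the same shares of all genes. With both siRNAs 25 were higher and 18 lower, and 0 were called in opposite directions, where all genes tested gave 11.1%, 10.2% and 0.355%. The 25 include VCAN and A2M, which were tested only because of their level in the siRNA libraries. Between the siRNAs 28 of the 71 were called, 10 higher and 18 lower with siRNA.2, beside 12.2% of all genes. TNC, or tenascin C, named after its values were seen, stood at 22.1, 10.6 and 23.6 FPKM, with -1.08 for siRNA.1, 0.09 for siRNA.2 (edgeR adjusted p = 0.169) and a difference between the siRNAs of 1.17 (edgeR adjusted p = 3.22e-121).

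**Figure D3:**
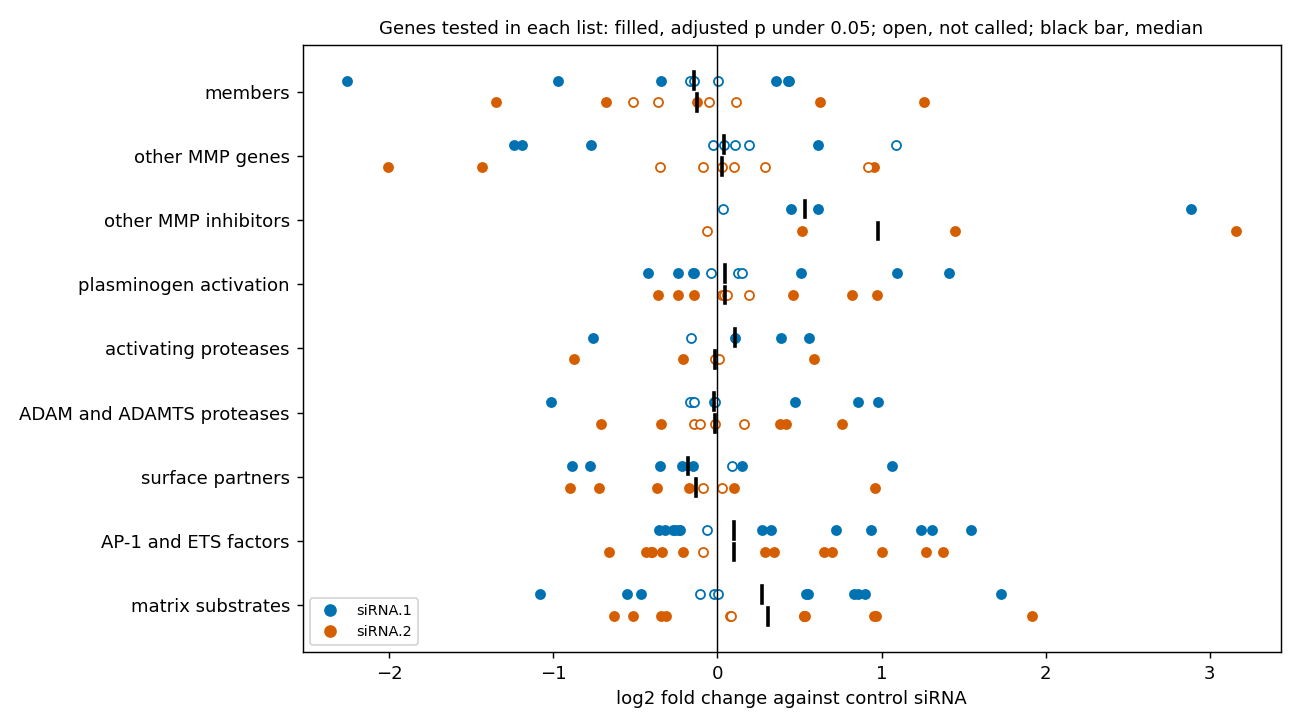
Log2 fold change against control siRNA (horizontal axis) of each gene tested in the members and the 8 other lists (rows), with siRNA.1 in the upper and siRNA.2 in the lower line of each row. Filled points have an edgeR adjusted p under 0.05, open points do not, and black bars are medians. The medians of the members are -0.14 and -0.12, and the 4 other MMP inhibitors tested have medians of 0.53 and 0.98. A2M, among these inhibitors, passed the filter only through the siRNA libraries.

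Patterns over the 9 libraries were compared with those of 11867 named genes whose mean level reached 1 FPKM, by Pearson's r of log2(FPKM + 0.1), for the most abundant MMP and TIMP. The genes most like MMP14 were RAP1A (r = 0.978) and CCDC126 (0.967), and 26 genes had r above 0.95. RAP1A averaged 13.4, 8.82 and 11.1 FPKM in the control, siRNA.1 and siRNA.2 libraries. The genes most like TIMP1 were FAM83A (r = 0.978), BCL2L1 (0.970) and MED16 (0.959), with 8 above 0.95. These are descriptions of 9 libraries that share 3 conditions and their depth.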

How the data were processed

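RNA-seq of 9 TE13 libraries was analysed, grouped by their titles, 3 per condition. According to the study's methods, the libraries were made from poly(A)+ RNA, STAR placed the reads on the human genome and featureCounts counted them per gene. The submitters' processing notes name GRCh38, and versions, annotation and strandedness are not given in the sources used here. The authors deposited raw counts per gene and FPKM. The deposited FPKM equalled, within 0.01, each count scaled by exonic length and library total.

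Counts were tested with edgeR 4.0.16 (TMM scaling, quasi-likelihood F test) in R 4.3.3, in a single fit of 3 conditions without covariates, over the 21397 genes that averaged 0.1 FPKM or more across all libraries, with Benjamini-Hochberg adjustment over all of them and a threshold of 0.05. The SE was taken as the size of the log2 fold change over the square root of F. Alternatives were other scalings (RLE, upper quartile, total counts, without mitochondrial genes), other filters, DESeq2 1.42.0, limma 3.58.1 on log2(FPKM + 0.1, 1 or 0.01), the 6 libraries compared alone, a replicate block and each library left out. Deviations of libraries with the same replicate number correlated between -0.194 and 0.107 over 11156 genes, so the numbers were not taken to pair libraries.

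The members and the gene lists were chosen with earlier results of these data known. Named are all members, the other MMP genes and MMP inhibitors with a mean of at least 1 FPKM, and in each further list, in each direction, up to 3 genes that averaged 1 FPKM or more, were called the same way with both siRNAs and had the largest average log2 change. Further genes are said to be named after their values were seen. The mean of 1 FPKM was taken over all libraries, so it favours genes that rose. FOS, FOSB and PCSK6 were below it in the control libraries, and MMP19 and MMP28 were above it there. A few genes that meet these rules are not reported here. Genes most like MMP14 and TIMP1 were taken from the 3 with the highest r each. Promoters are from RefSeq (GRCh38.p14), and tables and figures were made in Python 3.11.15 with pandas 2.3.3 and matplotlib 3.10.9. Every column of values per library was used. The precision rests on 3 libraries per condition.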

Additional observations from a re-analysis of the deposited data

Results flagged for a closer look

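For 5 members the effects of the 2 siRNAs against the shared control libraries differed in the direct test of siRNA.2 against siRNA.1 (edgeR). The differences were 0.91 for MMP7, 0.83 for MMP9 and 0.22 for MMP14, where the effects had the same direction and different sizes, and -0.41 for TIMP1 and -0.68 for TIMP2, where 1 siRNA passed the test against control and the other did not. The differences of TIMP1 and TIMP2 held under every setting tried, as did those of MMP7 and MMP9, and that of MMP14 was lost in limma. Outside the members, 28 of the 71 genes tested in the other lists differed between the siRNAs, among them TNC by 1.17, TIMP3 by 0.83 and FURIN by -0.38. Among all genes tested, 12.2% were called in this comparison. With 3 libraries in a group, single libraries were not tested as outliers.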

How the results depend on the processing

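Counts of members called kept within 1.5 times of the reported ones under all settings tried, from 5 to 6 with siRNA.1, from 4 to 6 with siRNA.2 and from 4 to 6 between the siRNAs. Counts over the other lists were between 42 and 52 with siRNA.1 and between 41 and 50 with siRNA.2, and between 49 and 52 and between 45 and 49 with 1 library left out. With the replicate block the counts were 6, 5 and 5 members and 52 and 49 other genes. The replicate number is only shared by name, and the block changed no count.

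Of the members' fold changes, 546 kept their direction and side of the threshold, 12 lost a call, 3 gained a call and 3 changed sign. The calls lost were those of MMP10 with siRNA.1 and of MMP14 with siRNA.2 and between the siRNAs, and the cause was not tested. Among values not called, leaving out 1 library turned the sign for MMP2 with siRNA.1 (-0.27 to 0.0074), TIMP2 with siRNA.1 (-0.033 to 0.038), RECK with siRNA.1 (-0.084 to 0.19) and siRNA.2 (-0.17 to 0.035), and MMP15 (-0.055 to 0.091), MMP25 (-0.25 to 0.11) and FURIN (-0.0049 to 0.026) with siRNA.2. FURIN also changed sign with RLE scaling and in DESeq2 (-0.0013 in each). MMP15 with siRNA.1 was called without siRNA.1 replicate 2 (0.26).

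From summed CPM in place of FPKM, the log2 ratio of MMP to TIMP level moved to -0.42 (siRNA.1) and 0.44 (siRNA.2), and without MMP14 it was 0.54 (siRNA.2). With all MMP and TIMP genes, an alternative chosen after seeing the data, it was -0.067 with siRNA.2. MMP2 drops out with a filter of 1 FPKM. Depth limits MMP3 and the target LINC00885, and for MMP10 the control libraries spread widely.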
